A study of Arabidopsis thaliana with 8 samples.

Results

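Peaks of m6A-bound RNA that lay outside annotated exons were described across 4 peak lists from Arabidopsis thaliana leaves. A peak was taken when its midpoint, on chromosomes 1 to 5, fell in no annotated exon on the peak's own strand. This gave 437 of 19528 peaks, and the other 19091 had their midpoint in an exon. The 437 were split, in this order, into 102 peaks in an intron of a gene on the same strand, 90 antisense to an exon of the opposite strand, 113 within 500 bp past the 3' end of a same-strand gene (called downstream), and 132 in none of these positions (called other intergenic). Gene models were those of RefSeq on TAIR10.1, and every coordinate is on that build.

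The series compared mta plants with wild-type Col-0 plants by miCLIP-seq, in which an antibody against N6-methyladenosine (m6A) is crosslinked to RNA with ultraviolet light and the bound RNA is sequenced. In mta plants (ABI3:MTA) the methyltransferase MTA is expressed from the ABI3 promoter, which is active in the embryo. Leaves 5 to 9 of plants aged 4 weeks were taken 4 h after first light, at 22 °C and 16 h of light with 8 h of dark, and 7 µg of poly(A)+ RNA went into each replicate. Each genotype had 2 m6A-bound libraries, and 4 supernatant libraries were not analysed here. Whether the replicates of a genotype were separate plants is not in the labels, and p-values then measure the spread between these libraries, which may be technical. Read depth is unknown because the lists carry no read counts.

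Plants without MTA die as embryos, and expression from an embryo promoter is a known way to obtain adult plants. m6A is set on nuclear RNA by a writer complex with MTA as its catalytic subunit, usually at an RRACH sequence (where R stands for A or G and H for A, C or U), and in leaf mRNA it is concentrated near the stop codon and in the 3' UTR. A poly(A)+ library mainly holds spliced mRNA. Introns are read only from retained, unspliced or internally polyadenylated RNA, and positions past an annotated end from longer 3' isoforms, readthrough or unannotated RNA. Antisense positions are reached by natural antisense RNA, or by the long 3' ends of a neighbour that is transcribed toward the gene.

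RefSeq sequences (TAIR10.1) of named regions show what these positions look like. The first set comes from the introns named for mta, for those whose peak also covered an exon, with exon bases in capitals and intron bases in lower case, each read on the peak's strand. It is shown because most mta intron peaks lay across such a boundary.
PAM1 (AT5G15930), intron, mta replicate 2, chr5:5201210-5201265, plus strand: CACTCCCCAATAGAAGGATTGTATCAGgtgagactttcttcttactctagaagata
AT4G17270, intron, mta replicate 2, chr4:9678370-9678421, plus strand: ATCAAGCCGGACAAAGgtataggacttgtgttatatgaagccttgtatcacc
FKBP15-1 (AT3G25220), intron, mta replicate 1, chr3:9183442-9183499, plus strand: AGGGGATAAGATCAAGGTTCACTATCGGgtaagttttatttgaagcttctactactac
In all 3, the peak began in the exon and ran past its 3' edge, across the gt of the 5' splice site, into the intron.

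The second set holds the highest-ranked region of each position and genotype, cut to the stretch that overlaps no annotated exon on either strand, or to 30 bases for the antisense peaks. RRACH matches are in capitals. The top downstream region of wild type had no wild-type midpoint outside an exon, so the next one is printed.
AT4G09605, intron, mta replicate 2, chr4:17706851-17706948, plus strand: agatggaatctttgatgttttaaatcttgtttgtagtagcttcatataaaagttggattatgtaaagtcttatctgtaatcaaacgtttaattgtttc
AT4G31980, intron, wild-type replicate 1, chr4:15466238-15466327, plus strand: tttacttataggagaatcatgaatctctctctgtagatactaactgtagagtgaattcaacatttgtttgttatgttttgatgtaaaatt
AT1G08935, antisense, mta replicate 2, chr1:6700614-6700643, minus strand: aatcaactaccaGAACCttcaggaggaggc
AT4G39630, antisense, wild-type replicate 2, chr4:18397607-18397636, plus strand: tcatatatatatAAACAAAACAtcattgtt
AT1G49832, downstream, mta replicate 1, chr1:18448772-18448825, plus strand: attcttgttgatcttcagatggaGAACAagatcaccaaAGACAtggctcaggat
AT4G16155, downstream, wild-type replicate 1, chr4:9153356-9153567, minus strand: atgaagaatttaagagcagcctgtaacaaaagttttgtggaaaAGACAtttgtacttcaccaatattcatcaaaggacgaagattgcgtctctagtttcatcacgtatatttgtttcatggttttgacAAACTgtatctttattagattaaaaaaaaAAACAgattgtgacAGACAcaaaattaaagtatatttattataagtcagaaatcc
AT3G55670, other intergenic, mta replicate 1, chr3:20656728-20656786, minus strand: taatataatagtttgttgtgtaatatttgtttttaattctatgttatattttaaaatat
AT1G58889, other intergenic, wild-type replicate 1, chr1:21801663-21801731, plus strand: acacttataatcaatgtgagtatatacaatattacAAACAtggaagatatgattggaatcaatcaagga
A run of A lay in a further peak, present in both mta lists beside AT2G13940 and picked, after values were seen, for having the longest run among regions of both mta lists. Capitals mark the run, of which 22 bases fall inside the peak and 31 within 50 nt of its midpoint.
AT2G13940, other intergenic, mta replicate 2, chr2:5852682-5852732, plus strand: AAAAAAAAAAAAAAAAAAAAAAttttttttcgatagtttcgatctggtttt
In the second set, RRACH was absent from both intron stretches and from the mta other intergenic stretch, and the printed stretch past AT4G16155 held 4 matches.

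The lists differed far more in exon peaks than in peaks outside exons. The mta lists held 67 and 126 outside-exon peaks (replicates 1 and 2, here and below), against 139 and 105 in the wild-type lists, so the counts of the genotypes overlapped (96.5 ± 41.7 in mta and 122 ± 24.0 in the wild type, SD, n = 2 each, exact permutation p = 0.667). Of exon peaks, the mta lists held 1844 and 1941, against 8828 and 6478 in the wild type. As a share of all peaks on these chromosomes, outside-exon peaks made up 3.51% (95% interval 2.73 to 4.43) and 6.10% (5.10 to 7.22) in mta, against 1.55% (1.31 to 1.83) and 1.60% (1.31 to 1.93) in the wild type. The mta share was 3.05 times the wild-type share, a difference of 3.23 percentage points with no overlap between genotypes. The two-sided exact permutation test gave p = 0.333, which is the smallest that 2 libraries against 2 allow, here and in every genotype comparison below. The difference was 1.93 points without mta replicate 2 and 4.52 without mta replicate 1, and 7.44 points when the exons of protein-coding genes alone were used to define outside. It was 2.22 points when the whole peak had to lie outside exons. With peaks that have a near-identical copy elsewhere in the genome left out, it was 2.28 points. Among peaks with a score of at least 50 it was 5.19 points, and among peaks of at least 75 bp 4.91 points. These 2 filters keep unlike parts of the lists. A score of 50 was at percentile 45.9 in mta replicate 2 and 94.6 in wild-type replicate 2, and most mta peaks were narrower than 75 bp.

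**Figure D1:**
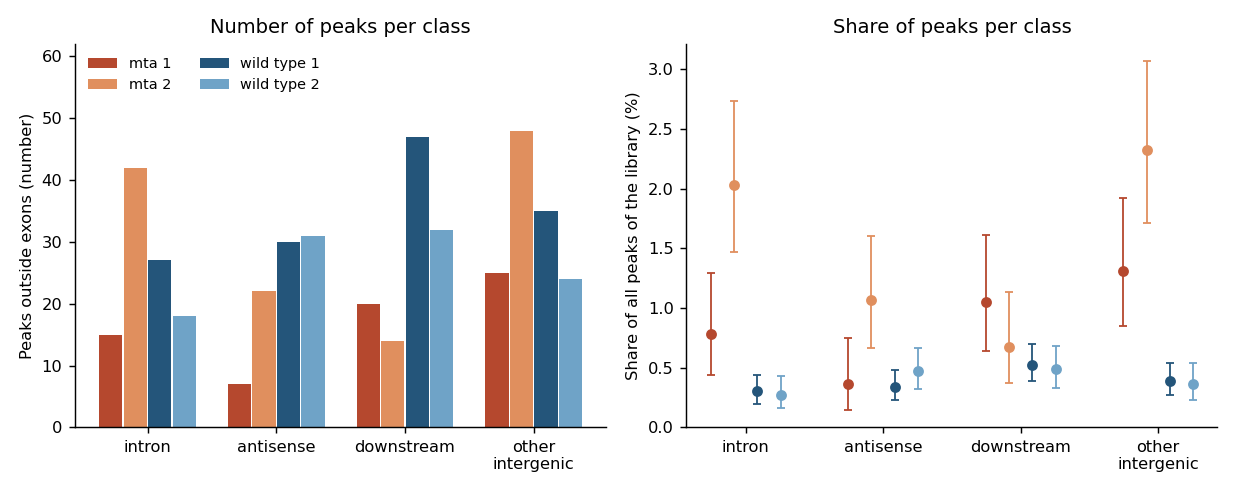
Number of outside-exon peaks in each position (left, bars, 1 per library) and their share of all peaks of the library in percent (right, points, with Clopper-Pearson 95% intervals for counting error), for mta replicates 1 and 2 and wild-type replicates 1 and 2. The counts of intron and other intergenic peaks overlap between genotypes, while their shares are higher in both mta libraries.

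Per megabase of strand, all positions outside exons were sparse. Exons held 31.1 and 32.8 peaks per Mb in mta and 149 and 109 in the wild type. Downstream windows came next among the outside positions, with 1.66 and 1.16 peaks per Mb in mta and 3.91 and 2.66 in the wild type, and mta replicate 2 alone had more in introns (2.19). The density in exons was 83.2 and 46.6 times that outside them in mta and 192 and 187 times in the wild type. Outside-exon peaks were also narrower than exon peaks in all 4 libraries, with a median width of 54 and 52.5 bp outside and 56 and 54 bp inside exons in mta, and 65 and 68 bp outside and 88 and 83 bp inside exons in the wild type (exact sign-flip p = 0.125, the smallest that 4 libraries allow).

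Intron peaks sat at different places in the 2 genotypes. There were 15 and 42 of them in mta and 27 and 18 in the wild type, or 0.785% and 2.03% of all peaks in mta and 0.301% and 0.273% in the wild type. The median distance from the midpoint to the nearest splice site was 8 and 6 nt in mta, against 95 and 95 nt in the wild type. Midpoints within 10 nt of a splice site made up 9 of 15 and 32 of 42 intron peaks in mta, against 3 of 27 and 1 of 18 in the wild type. All 41 such peaks in mta were at the 5' splice site, where the exon ends and the intron begins, as were 3 of the 4 in the wild type. Most mta peaks thus sat at exon ends, and most wild-type peaks lay further inside the intron. The peak itself covered exon bases in 10 and 34 cases in mta and in 6 and 2 in the wild type. No exon base was covered by 5 and 8 peaks in mta and by 21 and 16 in the wild type. With only such peaks counted, the difference in intron share was 0.0857 points, against 1.12 points (4.90-fold) with all intron peaks. With all intron peaks but without mta replicate 2 it was 0.498 points, and without mta replicate 1 it was 1.75 points. It was 0.575 points among peaks of at least 75 bp and 1.72 points at a score of at least 50. The width filter left out most mta intron peaks, whose median widths were 53 and 51 bp. These shares are of all peaks, and the lists differed in how many exon peaks were centred in coding sequence. Such peaks were 760 of 1844 and 943 of 1941 in mta, and 708 of 8828 and 553 of 6478 in the wild type. The 15 and 42 intron peaks of mta and 27 and 18 of the wild type were not tested against that base.

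Peaks whose midpoint was in an exon showed the same edge. Among those centred in coding sequence, 107 of 760 and 159 of 943 reached into an intron in mta (14.1% and 16.9%), against 42 of 708 and 36 of 553 in the wild type (5.93% and 6.51%), with no overlap between genotypes (exact permutation p = 0.333). They left the exon past the 5' splice site in 107 and 156 cases in mta and in 41 and 35 in the wild type. They left it before the 3' splice site in 0 and 3 cases in mta and 1 and 1 in the wild type. Peaks centred in coding sequence were short in all lists, with median widths of 55 and 53 bp in mta and 59 and 60 bp in the wild type. How reads that span a splice junction entered the authors' peak calls is not given in the sources used here, and their part in the intron counts was not tested.

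**Figure D2:**
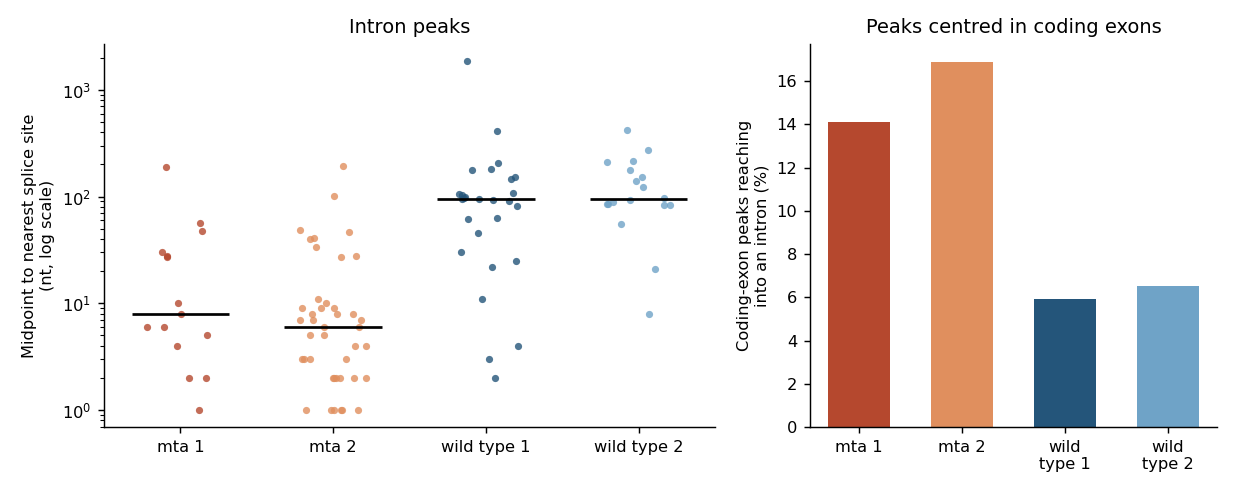
Left, distance in nt (log scale) from the midpoint of each intron peak to its nearest splice site, 1 point per peak, with the median of each library as a black line; right, percent of peaks centred in coding exons that reach into an intron. The mta medians lie at 8 and 6 nt and the wild-type medians at 95 nt in both libraries.

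Among the introns named for mta, AT4G17270, annotated as a Mo25 family protein, had peaks with scores of 37 and 70 in mta replicates 1 and 2 and none in the wild type. They were centred in its intron 10, the last, and the peak printed above held 16 exon bases. PAM1 (AT5G15930, plant adhesion molecule 1) had scores of 48 and 107 in mta, and FKBP15-1 (AT3G25220), an FK506-binding protein of a family of peptidyl-prolyl isomerases, had 53 and 52. In each of these 2 genes 1 mta midpoint fell on the exon side and the other on the intron side of the same 5' splice site, and neither gene had a peak there in the wild type. AT4G04200, annotated as a subunit of the microsomal signal peptidase, had scores of 41 and 66 in mta, with midpoints 48 and 49 nt from a splice site of intron 2 and no exon base. The highest-ranked mta intron region was in AT4G09605, a long noncoding RNA, with scores of 62 and 113 in mta and none and 35 in the wild type, and both mta peaks have 3 near-identical copies elsewhere in the genome. Scores rank peaks within a list and are not compared between lists, since their scale is not stated.

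The peaks in introns named for wild type lay deeper than those named for mta, except those in AT4G09605 (188 and 193 nt in mta). AT1G56500, listed under the synonym SOQ1 (suppressor of quenching 1), a chloroplast protein that keeps a slow form of photoprotective quenching in check, had scores of 96 and 36 in the wild type and none in mta. The midpoints were 93 and 92 nt from a splice site of intron 7. AT4G31980, a PPPDE thiol peptidase family gene, scored 92 and 42 in the wild type, in the 1288-nt intron 3, 182 and 176 nt from a splice site. AT2G25910, annotated with an exonuclease and a KH domain, scored 70 and 35, in its last intron. AT3G22430, annotated with an RNA recognition and an XS domain, scored 87 and 25, in the 1813-nt intron 1. These 3 introns held no peak in mta. In AT2G30766 an intron of the 3' UTR held peaks in mta replicate 2 (score 66) and in both wild-type replicates (41 and 42). The gene around an intron peak also had an exon peak in the same list for 6 and 11 of the peaks in mta (40.0% and 26.2%) and for 12 and 8 in the wild type (44.4% and 44.4%).

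Antisense peaks were fewer in mta, at 7 and 22 against 30 and 31 in the wild type, and with all peaks counted their share overlapped between genotypes. The shares were 0.366% and 1.06% in mta and 0.335% and 0.471% in the wild type (exact permutation p = 0.667), and the difference was 0.313 points with all libraries, -0.0364 points without mta replicate 2 and 0.662 points without mta replicate 1. At a score of at least 50 the shares did not overlap. They were 1.27% and 1.21% in mta and 0.332% and 0.464% in the wild type (0.841 points, exact permutation p = 0.333). That cut keeps unlike parts of the lists, with 50 at percentile 45.9 in mta replicate 2 and 94.6 in wild-type replicate 2. It left few antisense peaks, since mta replicate 1 held only 7 at any score, so these shares rest on small counts. Among peaks of at least 75 bp the difference was 0.123 points, with most mta antisense peaks left out (median widths 60 and 53.5 bp). The opposite gene was covered in its 3' UTR by 3 of 7 and 6 of 22 peaks in mta, against 14 of 30 and 14 of 31 in the wild type. Many of these peaks were also just past the end of a gene on their own strand. Within 500 bp past such an end lay 3 and 4 antisense peaks in mta and 18 and 14 in the wild type, and of the wild-type peaks opposite a 3' UTR 26 of 28 did. A position that is both opposite a 3' UTR and past an end on its own strand is one where neighbouring genes converge. Counting all peaks within 500 bp past an end as downstream changed the antisense shares to 0.209% and 0.871% in mta and 0.134% and 0.258% in the wild type. A peak of the same list lay on the sense strand at the same place in 1 and 1 cases in mta and 3 and 2 in the wild type.

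Of the 5 named antisense regions of wild type, 3 were of this convergent kind. Opposite AT4G39630, annotated as a translation initiation factor, the outside-exon midpoint was 9 bp past the end of EMB2453 (AT4G39620), a pentatricopeptide repeat gene, with scores of 95 and 52 in the wild type and no peak in mta. The peak of wild-type replicate 1 had its midpoint inside an annotated exon, and the peak of replicate 2 did not. EDL1 (AT5G15440), an F-box gene related to EID1 of phytochrome signalling, was met from the opposite strand 6 bp past the end of CLPB3, a chloroplast chaperone, with scores of 99, centred in an exon, and 44 in the wild type. The region opposite the 3' UTR of ZR3 (AT3G54826), a zinc ribbon gene, lay past the end of AT3G54830, by 145 bp at the midpoint of its highest-ranked peak, and scored 101 and 42. GEX1 (AT5G55490), known as a gamete-expressed membrane protein, was covered in its coding sequence with scores of 84 and 50. AT5G14650, a pectin lyase-like gene, was covered at its 5' UTR with scores of 102 and 36. None of these 5 had an antisense peak in mta.

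In mta, the region opposite AT1G08935, an uncharacterised RNA, ranked first with scores of 69 and 126, and AT5G38700 and AT3G11110, a RING/U-box gene, followed it among those without a wild-type peak, with scores of 55 and 93 and of 31 and 61. A pair of antisense regions was present in all 4 lists. Opposite the 3' UTR of BIN4 (AT5G24630), a subunit of the plant topoisomerase VI complex needed for endoreduplication, the scores in mta were 59 and 81, and 56 and 41 in the wild type, and the midpoint of the highest-ranked peak was 47 bp past the end of AT5G24620. Opposite AT1G21945, a pseudogene, the scores in mta were 58 and 64, and 70 and 35 in the wild type. Peaks opposite AT1G08935 and AT1G21945 had up to 1 near-identical copy elsewhere in the genome, and those opposite AT5G38700, AT3G11110 and BIN4 had 0.

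Downstream peaks followed different kinds of genes in the 2 genotypes. There were 20 and 14 of them in mta and 47 and 32 in the wild type, or 1.05% and 0.677% of peaks in mta and 0.524% and 0.486% in the wild type. The gene that ended upstream was protein-coding for 7 of 20 and 3 of 14 peaks in mta (35.0% and 21.4%), against 39 of 47 and 28 of 32 in the wild type (83.0% and 87.5%). The genotype means were 28.2% in mta and 85.2% in the wild type, a difference of -57.0 points without overlap (exact permutation p = 0.333). Wild-type downstream peaks thus mostly followed protein-coding genes, and mta ones mostly followed other genes. In mta the rest were 4 peaks past tRNA genes, 2 past snoRNA genes, 3 past miRNA genes, 10 past long or other noncoding RNA genes and 5 past pseudogenes. The corresponding wild-type numbers were 1, 3, 0, 4 and 4. Downstream of protein-coding genes alone there were thus 7 and 3 peaks in mta and 39 and 28 in the wild type, out of 1911 and 2067 peaks in mta and 8967 and 6583 in the wild type. The counts by gene type pool both lists of a genotype, so a gene can count more than once. The 34 mta peaks followed 25 genes and the 79 wild-type peaks 51. Near-identical copies elsewhere in the genome existed for 10 of 20 and 5 of 14 downstream peaks in mta and 9 of 47 and 5 of 32 in the wild type. Copies in an organelle genome existed for 4 and 2 of them in mta and 1 and 0 in the wild type.

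The distance past the 3' end had a median of 147 and 114 nt in mta and 93 and 106.5 nt in the wild type, and 13 of 20 and 10 of 14 peaks in mta and 36 of 47 and 24 of 32 in the wild type were within 200 bp. The farthest downstream midpoint was 466 nt past an end, and between 500 and 1000 bp past one lay a further 5 and 8 peaks in mta and 12 and 6 in the wild type, counted as other intergenic. The gene that ended upstream also had an exon peak in the same list for 0 and 0 peaks in mta and for 12 and 1 in the wild type, so this count rested on wild-type replicate 1. With near-identical copies left out, the difference in downstream share was 0.0928 points, against 0.357 points with all peaks, and it was 0.172 points without mta replicate 1 and 0.542 points without mta replicate 2. With a window of 200 bp it was 0.199 points, and with 1000 bp 0.569 points. It was 1.47 points among peaks of at least 75 bp and 0.769 points at a score of at least 50. The width filter left out most mta downstream peaks, whose median widths were 52.5 and 57.5 bp.

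**Figure D3:**
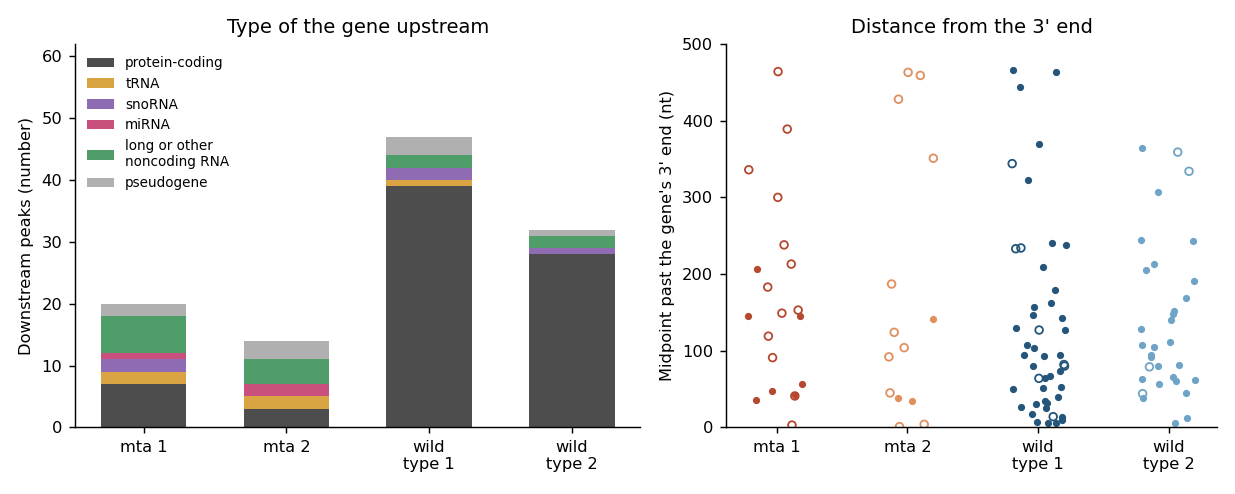
Left, downstream peaks of each library (number) by the annotated type of the gene that ends upstream; right, distance in nt from that gene's 3' end to the peak's midpoint, 1 point per peak, filled for protein-coding genes and open for all others. Protein-coding genes account for 7 and 3 peaks in mta and for 39 and 28 in the wild type.

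Past AT4G16155, annotated as a dihydrolipoamide dehydrogenase, a peak of 212 bp with a score of 118 in wild-type replicate 1 lay wholly beyond the annotated end, centred 108 nt past it. Wild-type replicate 2 had 2 shorter peaks there, with scores of 50 and 35, centred 62 and 169 nt past the end, and mta had none. AT1G76630, a tetratricopeptide repeat gene, scored 116 and 42 in the wild type, 143 and 108 nt past its end. AT5G08230, listed as HULK1 (HUA2 LIKE 1), scored 85 and 42 in the wild type, 50 and 57 nt past its end. AT1G31258, a noncoding RNA gene, scored 29 and none in mta and 94 and 58 in the wild type, with up to 2 near-identical copies elsewhere. The region that ranked first in the wild type, past AT1G79075, another noncoding RNA gene, was centred outside the exon in mta replicate 2 alone (score 26), and its peaks of 161 and 58 in the wild type and 14 in mta replicate 1 were centred in the exon.

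In mta the top downstream region was 464 and 463 nt past AT1G49832, a noncoding RNA gene, with scores of 61 and 84 and none in the wild type. Both peaks have a near-identical copy. AT2G07743, a tRNA-Asp gene, had 48, centred in the gene, and 103, centred 1 nt past it. MIR414, annotated as a miRNA precursor, had 38 and 69, 183 and 187 nt past its end, and AT2G43550, a knottin-like gene, 44 and 68. None of these had a wild-type peak. AT3G56790, annotated as similar to a splicing factor, had 64 and 71 in mta and 47 and none in the wild type. Peaks of the regions at AT2G07743 and AT3G56790 had up to 1 near-identical copy elsewhere in the genome, and those past MIR414 and AT2G43550 had 0.

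A larger share of other intergenic peaks than of exon peaks had a near-identical copy in all 4 libraries, and some in mta held long runs of A. There were 25 and 48 of them in mta and 35 and 24 in the wild type, which is 1.31% and 2.32% of peaks in mta and 0.390% and 0.365% in the wild type, a difference of 1.44 points (4.81-fold). The difference was 0.931 points without mta replicate 2, 0.796 points with near-identical copies left out and 2.74 points among peaks of at least 75 bp. The width filter left out most mta other intergenic peaks, whose median widths were 54 and 53 bp. The nearest gene end was a median of 320 and 287.5 nt away in mta and 259 and 273.5 nt in the wild type. A near-identical copy elsewhere in the genome, meaning at least 95% identity over at least 90% of the peak, existed for 56.0% and 47.9% of these peaks in mta and 51.4% and 58.3% in the wild type. Soft-masked repeat sequence made up a mean of 38.8% and 34.9% of their bases in mta and 21.4% and 17.0% in the wild type, against 11.6% and 10.0% of the bases of exon peaks in mta and 19.0% and 18.6% in the wild type.

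A run of at least 12 A on the peak's strand, within 50 nt of the midpoint, was present in 3 of 25 and 12 of 48 other intergenic peaks in mta and in 0 of 35 and 0 of 24 in the wild type, where counting error allows up to 10.0% and 14.2%. Of the 15, 12 came from mta replicate 2. Runs of at least 12 U were present in 1 and 1 peaks in mta and in 0 and 0 in the wild type. Over all 101-nt windows of other intergenic sequence, 0.866% hold such a run of A and 0.770% such a run of U. The longest run was of 36 A, in a peak 145 bp from PUX3 and in one 831 bp from AT3G45243, both in mta replicate 2. The regions nearest to AT2G13940 and AT2G25830, with runs of 31 and 29 A, were in both mta lists, with scores of 48 and 93 and of 42 and 93. The second of them lay 1191 bp from its gene. Outside exons as a whole, runs of at least 12 A were in 3 of 67 and 15 of 126 peaks in mta and in 3 of 139 and 1 of 105 in the wild type. The part of these runs in the other intergenic counts was not tested.

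AT3G55670, an F-box gene, was the nearest gene to the highest-ranked other intergenic region of mta, with scores of 137 and 126 in mta and none in the wild type, 1256 and 1258 nt past its end. A region 1869 bp before the 5' end of GH3.1, an enzyme that joins amino acids to auxin, scored 100 and 117 in mta, and 53 and none in the wild type. A region 1081 bp before the 5' end of HCS1, holocarboxylase synthase 1, on the opposite strand, scored 70 and 114 in mta, and 70 and none in the wild type. The mta peaks near AT3G55670 and HCS1 have 1 near-identical copy each, and those near GH3.1 have 0. In the wild type the top pair lay beside the pseudogenes AT1G58889 and AT1G59265, at chr1:21801599-21801731 and chr1:21837857-21837989. The 133 bases are identical in both, both scored 126 in wild-type replicate 1 and 50 in replicate 2, and neither had a peak in mta. The list of wild-type replicate 1 held 3 such pairs of outside-exon peaks with the same sequence and score at these loci, and that of replicate 2 held 3. Peaks of both lists overlap, so these 12 members cover 4 pairs of regions. AT3G52110 (opposite an intron), AT2G11270 and AT4G05700 marked further wild-type regions, with scores of 108 and 50, 134 and 42, and 108 and 42. Peaks near AT4G05700 had up to 4 near-identical copies, and those near AT3G52110 and AT2G11270 had 0.

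Near-identical copies were more frequent in peaks of every outside position than in exon peaks. The smallest gap was in introns of mta replicate 2 (11.9% against 7.11%). The share of all sequence at each position that has such copies was not computed, so the peaks cannot be set against that background. They were found for 43.3% and 29.4% of outside-exon peaks in mta and 28.1% and 29.5% in the wild type, against 5.86% and 7.11% of exon peaks in mta and 1.84% and 1.96% in the wild type. The share was higher outside exons in 4 of 4 libraries, by a mean of 28.4 points (exact sign-flip p = 0.125, the smallest that 4 libraries allow). It was lowest in introns, at 18.4% averaged over the libraries, and highest in other intergenic peaks, at 53.4%. Reads from such sequences can be placed at more than 1 locus, and how the authors treated them is not given in the sources used here.

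RRACH within 50 nt of the midpoint was less frequent outside exons in mta than in the wild type, at 59.4% ± 5.85 in mta and 77.8% ± 0.901 in the wild type (SD, n = 2 each, exact permutation p = 0.333, no overlap). Outside minus inside exons, the share differed by -16.4 and -9.56 points in mta and by 1.47 and -0.211 points in the wild type, with a mean of -6.18 (exact sign-flip p = 0.375). The mean was 0.122 points at a score of at least 50, -0.569 with a window of 25 nt, -2.29 with 100 nt, -3.27 for DRACH (a wider motif that also allows U first) and -2.77 without mta replicate 1. The motif was searched as any A or G, then A or G, then AC, then A, C or U, on the peak's strand. It is common by composition: of all 101-nt windows it is in 72.0% in exons, 63.0% in introns, 76.4% antisense, 72.5% downstream and 74.1% in other intergenic sequence. Against these, intron peaks had it in 66.7% and 78.6% of cases in mta and 92.6% and 83.3% in the wild type, and other intergenic peaks in 44.0% and 56.3% in mta and 74.3% and 87.5% in the wild type. AAUAAA, the canonical polyadenylation signal, was within 50 nt of 14.6% of downstream peaks in mta and 10.0% in the wild type (means of 2 libraries), against 14.5% of all downstream windows.

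**Figure D4:**
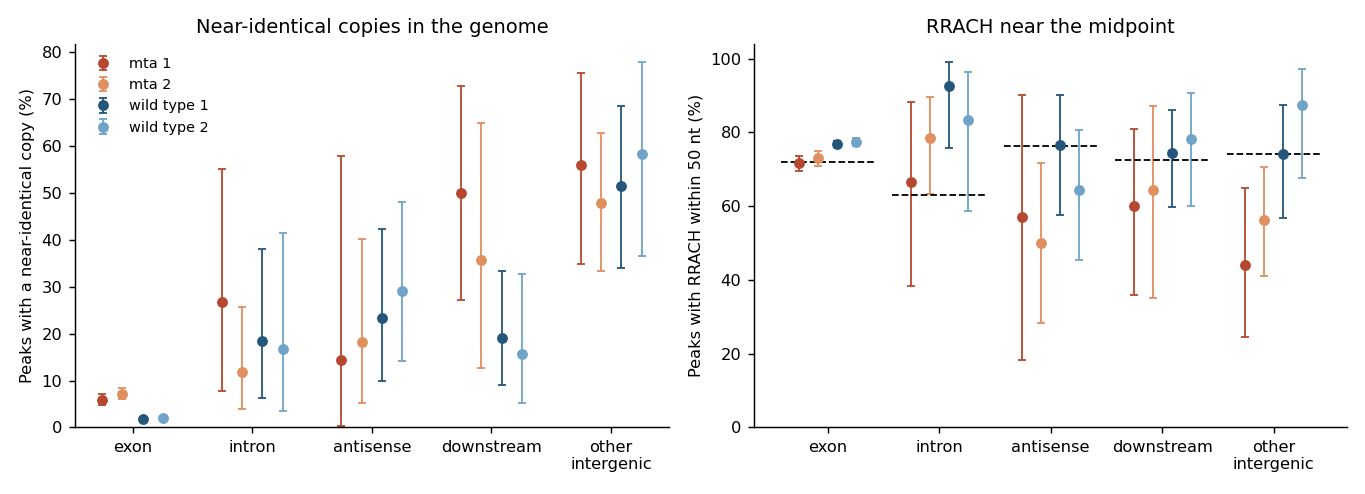
Percent of peaks with a near-identical copy elsewhere in the genome (left) and with RRACH within 50 nt of the midpoint (right), by position and library, with Clopper-Pearson 95% intervals for counting error; dashed lines give the share of all 101-nt windows of that position with RRACH. Copies are more frequent outside exons in all 4 libraries, and RRACH in other intergenic peaks lies below the dashed line in both mta libraries.

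Joined across lists, peaks that overlapped on a strand made 295 regions outside exons, of which 80 were intronic, 62 antisense, 74 downstream and 79 other intergenic. Of these 168 were in 1 list, 107 in 2, 14 in 3 and 6 in all 4. Regions in both mta lists numbered 50, and 36 of them (72.0%, interval 57.5 to 83.8) had no peak in either wild-type list, against 49.4% of all 953 regions in both mta lists, exons included. Regions in both wild-type lists numbered 78, and 66 of them (84.6%, 74.7 to 91.8) had no peak in either mta list, against 85.0% of all 5513 such regions. The wild-type share was thus at the background, and the mta share was above it, with 90.9% for introns (10 of 11) and 65.2% for other intergenic regions (15 of 23). These are descriptions of the lists, and the difference from the background was not tested.

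A peak of the other replicate overlapped 44 of 67 and 48 of 126 outside-exon peaks in mta (65.7% and 38.1%) and 73 of 139 and 79 of 105 in the wild type (52.5% and 75.2%). Outside minus inside exons, this share differed by 16.0 and -8.89 points in mta and by -10.9 and -12.4 points in the wild type, so mta replicate 1 went against the other 3 libraries (mean -4.04, exact sign-flip p = 0.625). Without mta replicate 1 the mean was -10.7 points, it was -2.42, -1.75 and -1.27 without mta replicate 2, wild-type replicate 1 and wild-type replicate 2 in turn, -7.72 with near-identical copies left out and 2.1 at a score of at least 50. Intron peaks of mta replicate 2 were met least often, in 10 of 42 cases. Other intergenic peaks of mta replicate 1 were met most often, in 22 of 25.

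**Figure D5:**
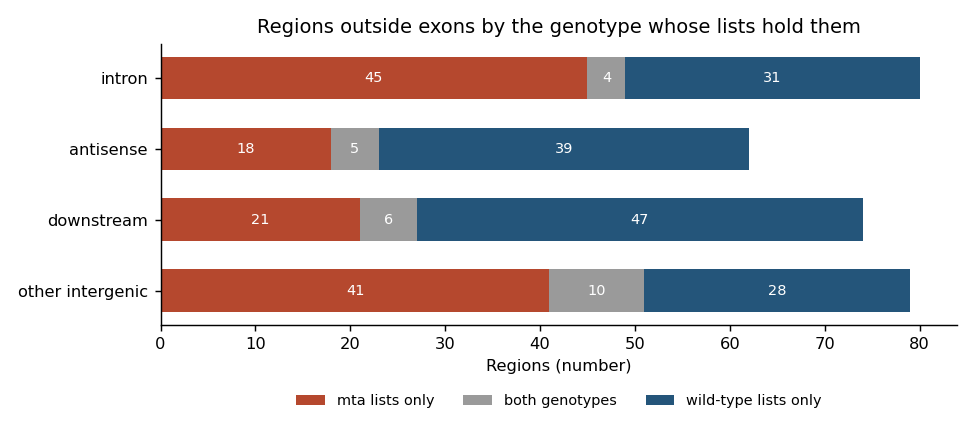
Number of regions outside exons in each position that were in mta lists only, in lists of both genotypes, or in wild-type lists only. Regions of both genotypes number 4 in introns, 5 antisense, 6 downstream and 10 in other intergenic sequence.

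Outside antisense positions, 4 more regions were in all 4 lists. A region whose nearest gene was AT5G28210, annotated as an mRNA capping enzyme, lay 2084 bp before that gene's 5' end. It had highest scores of 76 and 93 in mta and 76 and 29 in the wild type, where each list held 2 peaks. AT1G24996, an uncharacterised gene, was the nearest gene to a region that scored 44 and 48 in mta and 75 and 50 in the wild type. A region beside the pseudogene AT4G18420 scored 24 and 27 in mta and 22 and 43 in the wild type, and the region past AT1G79075 is given above. Peaks of the regions at AT5G28210, AT1G24996 and AT4G18420 had up to 1, 3 and 3 near-identical copies elsewhere, and those at AT1G79075 had 0. Of genes in 4 short lists chosen for known biology of such positions, none had a peak outside exons. These were 22 genes with known intron-retained or internally polyadenylated isoforms, 6 with a described antisense or downstream RNA, 11 genes of the m6A machinery and 10 leaf mesophyll markers. Exon peaks were present in 13, 2, 6 and 0 of them. Of all 37899 annotated genes, 0.831% had a peak outside exons assigned to them and 23.0% had an exon peak, so a count of 0 among 49 genes does not set these lists apart. The lists hold peaks and no expression values, so they could not be used to check the labelled tissue.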

How the data were processed

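Per the labels' protocols, strand-specific miCLIP-seq libraries were made from leaf poly(A)+ RNA, and STAR 2.4.0, MACS2 and the TAIR10 genome are named in the submitters' processing notes. The 4 deposited peak lists give chromosome, start, end, name, score and strand. From the peak names, the authors made the calls for each library and each strand apart, and names in the list of mta replicate 2 are built differently. The deposited score, a whole number set by the authors, has no stated scale and ran from 13 to 137 and 20 to 203 in mta and 13 to 161 and 13 to 58 in wild type. It was used for ranks within a list and, at 50, as a filter. That filter keeps unlike parts of the lists, since the score ranges differ. The lists held 1934 and 2092 peaks in mta and 8973 and 6584 in wild type, and peaks off chromosomes 1 to 5 were left out. Read depth is unknown, the control and threshold behind the calls are not stated, and intervals cover counting error only.

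Midpoints were placed on the RefSeq annotation of TAIR10.1, with exon before intron, antisense and downstream in priority. Overlap meant at least 1 bp on the same strand. Copies were found with BLAST 2.17.0 (word size 16), and motifs were searched in windows of 101 nt. The classification was tested on simulated peaks of known position. Genotypes were compared with exact permutation tests (2 against 2 libraries, smallest p 0.333, two-sided), and positions with exact sign-flip tests over 4 libraries (smallest p 0.125). Python 3.11.15, numpy 2.4.6, pandas 2.3.3, scipy 1.17.1 and matplotlib 3.10.9 were used.

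The positions, gene lists and tests were chosen with earlier results of these data known. Named regions are, for each position, up to 5 regions in both mta lists and up to 5 in both wild-type lists by mean score percentile, all regions in 4 lists (6), and genes of the 4 gene lists with a peak outside exons (0). Peaks with runs of A, peaks at the splice sites and identical peak pairs were chosen after their values were seen.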

Additional observations from a re-analysis of the deposited data

How the results depend on the processing

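The 7 results were recomputed under 18 alternative settings, each applied to the results it bears on, which gave 70 values. One setting, leaving out peaks with a near-identical copy (7 values), was chosen after seeing the data. Of the 70 values, 67 kept their direction. Their side of the threshold was fixed in advance, since the smallest p with all 4 libraries is 0.333 for genotypes and 0.125 for positions. The replicate-block differences equal the main ones by construction and are counted among the 67. Direction turned in 3: the antisense share difference was -0.0364 points without mta replicate 2, against 0.313, and at a score of at least 50 the other-replicate difference was 2.1 points, against -4.04, and the RRACH difference 0.122 points, against -6.18. The cause was not tested. Leaving out 1 library at a time, mta minus wild type ranged from 1.93 to 4.52 points for the outside-exon share, 0.498 to 1.75 for introns, -0.0364 to 0.662 for antisense, 0.172 to 0.542 for downstream and 0.931 to 1.95 for other intergenic. Outside minus inside exons ranged from -10.7 to -1.27 points for overlap with the other replicate and from -8.73 to -2.77 for RRACH. With the replicate number as a replicate block, the differences were 3.23, 1.12, 0.313, 0.357 and 1.44 points in the same order (exact p = 0.5 for each, the smallest that 2 pairs allow). The numbers are only labels here, since nothing ties same-numbered libraries to a shared plant, batch or day. Unknown read depth limits every share, because a list called at another depth could hold another mix of positions.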
